A study of Mus musculus with 11 samples.

Results

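The 10 circadian clock genes described here are Arntl, Clock, Npas2, Per1, Per2, Per3, Nr1d1, Nr1d2, Dbp and Tef. They were taken by symbol from a table of RNA-seq read counts for 36666 genes in mouse cerebrum, and all 10 were found and passed the filter on low counts. The study compared brain mitochondrial proteins and cerebral mRNA of Polg mutator mice with those of their littermates. It asked whether changes in protein came with changes in mRNA, and only its RNA-seq data are used here. The mutator mice are homozygous for D257A, a knock-in change that removes the proofreading of the mitochondrial DNA polymerase, so that errors build up in mitochondrial DNA in every tissue. The 7 mutator mice (207, 211, 217, 236, 240, 248 and 249) were compared with 4 control mice, of which 3 were WT/WT (205, 239 and 246) and 1 was WT/D257A (237). The control group therefore includes 1 mouse with a single D257A allele. Values without it are given where a call was lost and for some other results. All 11 mice were males of the C57/Bl6 strain aged 1 year, from crosses of WT/D257A parents, so that controls also had a mother with the mutant allele, and 1 frozen cerebral hemisphere without the cerebellum was used from each. The gene counts do not read the D257A change, so the genotypes could not be checked from them. The time of day at which each mouse was killed is not given in the sources used here, and a difference in clock time between mice cannot be told apart from a difference in level.

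The clock is a loop of transcription with a period of about a day that runs in most cells of the body. Clock or its brain relative Npas2 pairs with Arntl (Bmal1) and switches on genes through the E-box, among them the Per genes, whose proteins later shut the pair off. Nr1d1 and Nr1d2 (the Rev-erb receptors) repress Arntl through sites for nuclear receptors, and Dbp and Tef, PAR bZIP factors, carry the rhythm to output genes through the D-box. In rodents that live in a light-dark cycle, Dbp and Nr1d1 peak by day and Arntl at the opposite phase, while Tef, which is abundant in brain, moves less.

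Matches to known motifs near the start sites of these genes are shown first. The genes below are grouped by their role in the loop, not by these matches. RefSeq windows of 300 bases (250 before and 50 after the start site, build GRCm38.p6) were matched for 9 of the 10 genes, 14 windows in all, and Per2 was not matched. Both strands were searched for the E-box CACGTG, for the D-box as TTATGTAA or TTACGTAA, for the nuclear receptor site AGGTCA and for the cAMP response element TGACGTCA. An E-box was found in the windows of Per1 and in both windows of Tef, against 7.15% of 32851 windows of all genes. The window of Per3 held 2 D-boxes (1.06% of all windows held any), and a nuclear receptor site was found in those of Arntl, Clock, Nr1d2 and Per1 (16.3%). The cAMP element was in none of the 14 windows (1.79% of all windows). Each sequence is written 5′ to 3′ on the strand of its gene with the motif in capitals, and positions are those of the stretch printed.
Per1 E-box, chr11:69098771-69098800, plus strand: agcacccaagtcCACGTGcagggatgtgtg
Tef E-box, first start site, chr15:81802534-81802563, plus strand: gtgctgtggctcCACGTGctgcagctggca
Tef E-box, second start site, chr15:81811264-81811293, plus strand: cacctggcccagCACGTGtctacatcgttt
Per3 D-box, farther from the start site, chr4:151044851-151044882, minus strand: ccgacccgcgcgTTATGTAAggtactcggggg
Per3 D-box, nearer to the start site, chr4:151044804-151044835, minus strand: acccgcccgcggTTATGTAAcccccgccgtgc
Nr1d2 nuclear receptor site, chr14:18239166-18239195, minus strand: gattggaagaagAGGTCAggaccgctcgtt
The windows of Dbp, Nr1d1 and Npas2 held none of these motifs. Because Dbp is the gene with the clearest difference below, its gene body was also searched for the E-box, a search chosen after its values were seen. Its 5068 bases in mm9 held 2 E-boxes, both within annotated exons. A match in this window or gene is a string of letters, and binding was not measured.
Dbp E-box, chr7:52963070-52963099 (mm9), plus strand: acattccctcgcCACGTGagtccgccttcc
Dbp E-box, chr7:52963183-52963212 (mm9), plus strand: agctgtaggccaCACGTGatgcggccctga

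Gene counts summed to between 28249345 (mouse 246) and 121182250 (mouse 205) per mouse. Mutator mouse 248 stood apart, since 2.996 gene counts were deposited per aligned read listed for it, against 0.744 to 0.775 in the other mice. The lowest count of any clock gene in any mouse was 961 (Arntl), where counting error alone is 3.23%, and the SD between mice of a group was 3.39% to 16.2% of the mean for these genes. The markers of neurons, astrocytes, oligodendrocytes, microglia, endothelium, choroid plexus and striatal neurons that were tested were all detected. Rbfox3 was not matched under the symbols searched, and the cerebellar genes Pcp2 (0.482 and 0.609 CPM in controls and mutators, CPM being counts of a gene relative to the library total) and Gabra6 (too low to test) were near 0.

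Of the 10 clock genes, Dbp was lower in the mutators and no other gene passed the test. Levels are in CPM with TMM scaling factors, and differences are log2 fold changes of mutators over controls from edgeR with p-values adjusted over 17983 genes. A gene was called at an adjusted p under 0.05, which took 1.24% of all genes tested (0.801% lower and 0.439% higher in the mutators). With 1 of 10 called, the list is too short for its share to be read against that. By sign, 5 of the clock genes were higher and 5 lower, and their median log2 fold change was 0.0073 (0.0014 over all genes tested). At an unadjusted p under 0.05, 2 of the 10 passed (Dbp and Nr1d1), against 15.8% of all genes. The groups did not separate completely for any of the 10, against 2.62% of all genes. In bulk tissue, fewer cells that express a gene and less RNA per cell cannot be told apart.

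**Figure D1:**
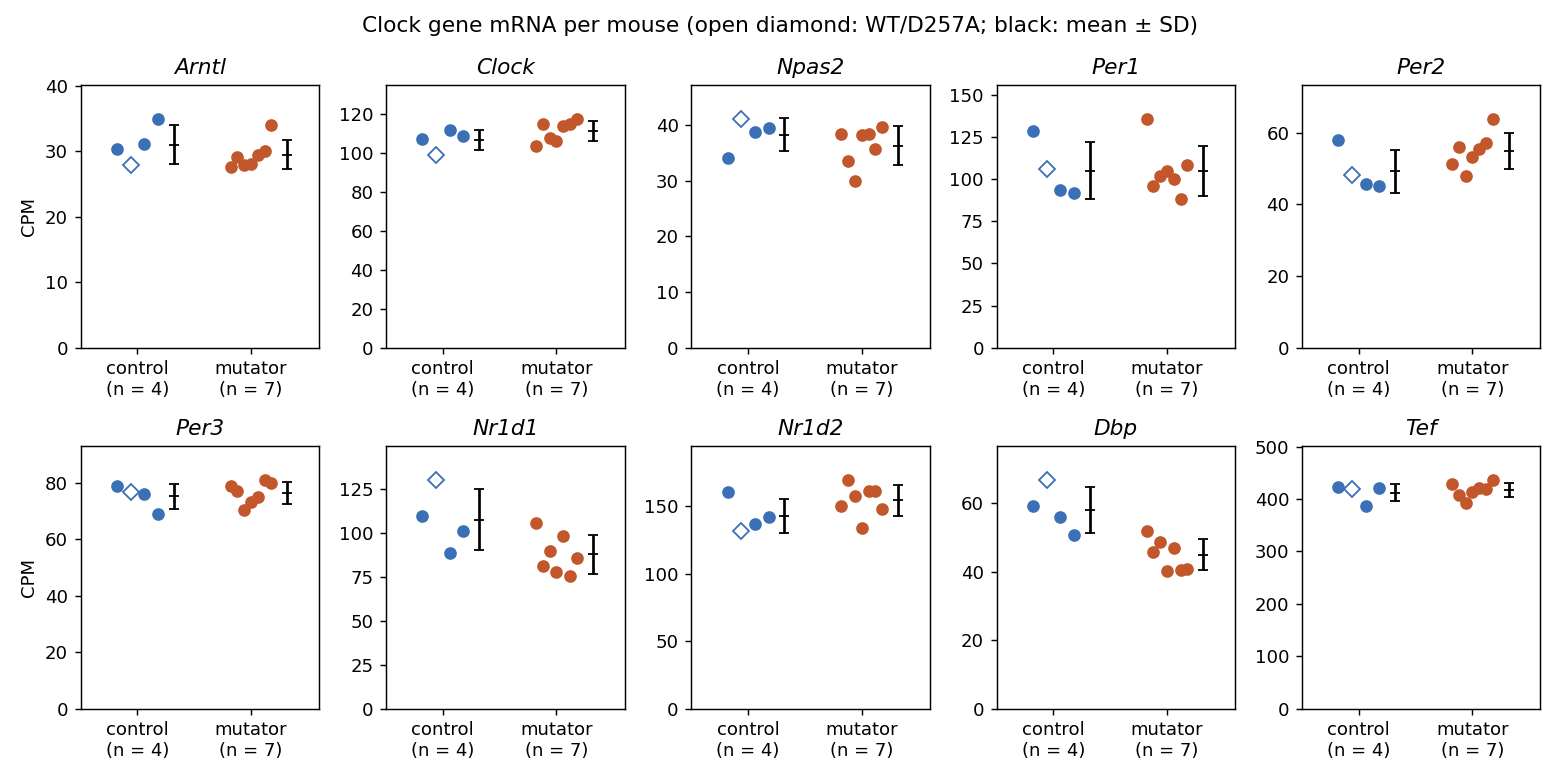
Level of each clock gene in CPM (vertical axis from 0) for each mouse, with controls in blue (open diamond for the WT/D257A mouse 237), mutators in orange, and black bars for mean ± SD beside each group. For Dbp, 6 of the 7 mutators lie below the lowest control, and for Nr1d1 4 of the 7 do.

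Dbp (chr7:52960458-52965525, plus strand, mm9) encodes a PAR bZIP activator whose own rhythm is among the steepest in mouse tissues. In the controls its level was 59.1 CPM in mouse 205, 66.8 in the WT/D257A mouse 237, 56.0 in mouse 239 and 50.8 in mouse 246. In the mutators the lowest was 40.2 CPM (mouse 236), the median 45.7 and the highest 51.8 (mouse 207). Mouse 207 was thus the one mutator above the lowest control, and 6 of 7 lay below it. The means were 58.2 ± 6.70 CPM (SD, n = 4) and 45.0 ± 4.57 (SD, n = 7), and the log2 fold change was -0.37 (SE 0.077, 95% limits -0.53 to -0.21, edgeR adjusted p = 0.0241), so that the level fell by 22.7%. The call rested on the controls: without mouse 237, which leaves the WT/WT controls alone, the log2 fold change was -0.30 and the adjusted p 0.142, and without mouse 239 it was -0.39 with an adjusted p of 0.0523. Without mutator 248 it was -0.35 (adjusted p = 0.0482). Across the exons of Dbp, 491 bases (16.7%) overlap Sphk2, a sphingosine kinase gene on the other strand, in GENCODE vM1, and the strand setting of the counting is not given in the sources used here. The level of Sphk2 ranged from 20.6 to 27.2 CPM in controls and from 19.7 to 25.0 in mutators.

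Tef (chr15:81632851-81657291, plus strand), the relative of Dbp, differed little between the groups. Its level was 422 CPM in mouse 205, 419 in mouse 237, 387 in mouse 239 and 421 in mouse 246, and the mutators ran from 393 through a median of 420 to 436. The log2 fold change was 0.02 (SE 0.043, 95% limits -0.071 to 0.11, adjusted p = 0.886). Tef also varied least between mice of all 10 genes.

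Nr1d1 (chr11:98629246-98636647, minus strand), which encodes the repressor Rev-erb alpha, was next to Dbp in size but did not pass. The controls had 110 CPM in mouse 205, 130 in mouse 237, 88.6 in mouse 239 and 101 in mouse 246. The mutators ran from 75.3 (mouse 248) through a median of 85.6 to 106 (mouse 207). The same mice, 237 among controls and 207 among mutators, held the highest levels of both Nr1d1 and Dbp. Means were 107 ± 17.4 CPM (SD, n = 4) and 87.7 ± 11.1 (SD, n = 7), with a log2 fold change of -0.29 (SE 0.11, unadjusted p = 0.0241 in edgeR, adjusted p = 0.233). Without mouse 237 the value was -0.19 (adjusted p = 0.594). Exons of Nr1d1 share 263 bases (8.42%) with Thra on the other strand, a receptor gene measured at 673 to 807 CPM in controls and 638 to 772 in mutators. Nr1d2 (chr14:19036568-19071641, minus strand), which encodes Rev-erb beta, had the other sign. Its controls ran from 131 (mouse 237) to 161 CPM (mouse 205) and its mutators from 134 (mouse 236) to 170 (mouse 211). The log2 fold change of Nr1d2 was 0.11 (SE 0.061, adjusted p = 0.385), and without mouse 237 it was 0.07 (edgeR adjusted p = 0.766).

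The 3 activators of the loop did not differ between the groups beyond their spread. Arntl (chr7:120350979-120457636, plus strand) was at 30.3 CPM in mouse 205, 27.9 in mouse 237, 31.1 in mouse 239 and 34.9 in mouse 246, and the mutators ran from 27.7 through 29.2 to 34.1 (mouse 249). Its log2 fold change was -0.07 (SE 0.065, 95% limits -0.21 to 0.063, adjusted p = 0.631). Clock (chr5:76639992-76733817, minus strand), the partner of Arntl, was at 99.1 to 112 CPM in controls and at 104 to 117 in mutators (log2 fold change 0.06, SE 0.047, adjusted p = 0.578). Without mouse 237 the log2 fold change of Clock was 0.03 (edgeR adjusted p = 0.902). Npas2 (chr1:39250576-39420079, plus strand), which can take the place of Clock in forebrain, was at 34.0 to 41.0 CPM in controls and 29.9 to 39.7 in mutators (log2 fold change -0.07, SE 0.071, adjusted p = 0.653).

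Of the Per genes, whose proteins repress the activators, Per2 had the largest difference. Per2 (chr1:93312561-93355907, minus strand) was at 57.9 CPM in mouse 205, 48.1 in mouse 237, 45.6 in mouse 239 and 45.1 in mouse 246. The mutators ran from 47.8 (mouse 217) through a median of 55.5 to 63.7 (mouse 249), so that only 1 mutator exceeded the highest control. The log2 fold change was 0.16 (SE 0.074, 95% limits -0.00031 to 0.31, unadjusted p = 0.0504, adjusted p = 0.319 in edgeR). Without mouse 205, the highest control, it was 0.25 (adjusted p = 0.0665). Per1 (chr11:68908719-68923462, plus strand), which also responds quickly to light and to stress hormones, was alike in its group means of 105 CPM. Mouse 205 (128 CPM) and mutator 207 (135 CPM) held its highest levels, while the other mice lay between 88.3 and 109 CPM. The log2 fold change of Per1 was -0.0024 (SE 0.12), with limits of -0.27 to 0.26. Per3 (chr4:150377761-150418774, minus strand) was at 69.1 to 79.1 CPM in controls and 70.4 to 81.1 in mutators (log2 fold change 0.02, SE 0.050).

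Per kilobase of exon, which allows a rough comparison of different genes, Tef stood highest in the controls at 52.4 CPM per kb. The length used is that of all annotated exons of a gene merged, not that of the mRNA expressed. Nr1d1 (34.4), Nr1d2 (28.6), Dbp (19.8) and Per1 (18.6) followed. Clock (12.1), Arntl (10.6), Per2 (8.42), Npas2 (7.99) and Per3 (7.83) stood lowest. By this measure the activators stood below the Rev-erb receptors and the PAR bZIP factors in this tissue. In the mutators Nr1d2 (30.9 CPM per kb) stood above Nr1d1 (28.1), and Per1 (18.6) above Dbp (15.3).

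**Figure D2:**
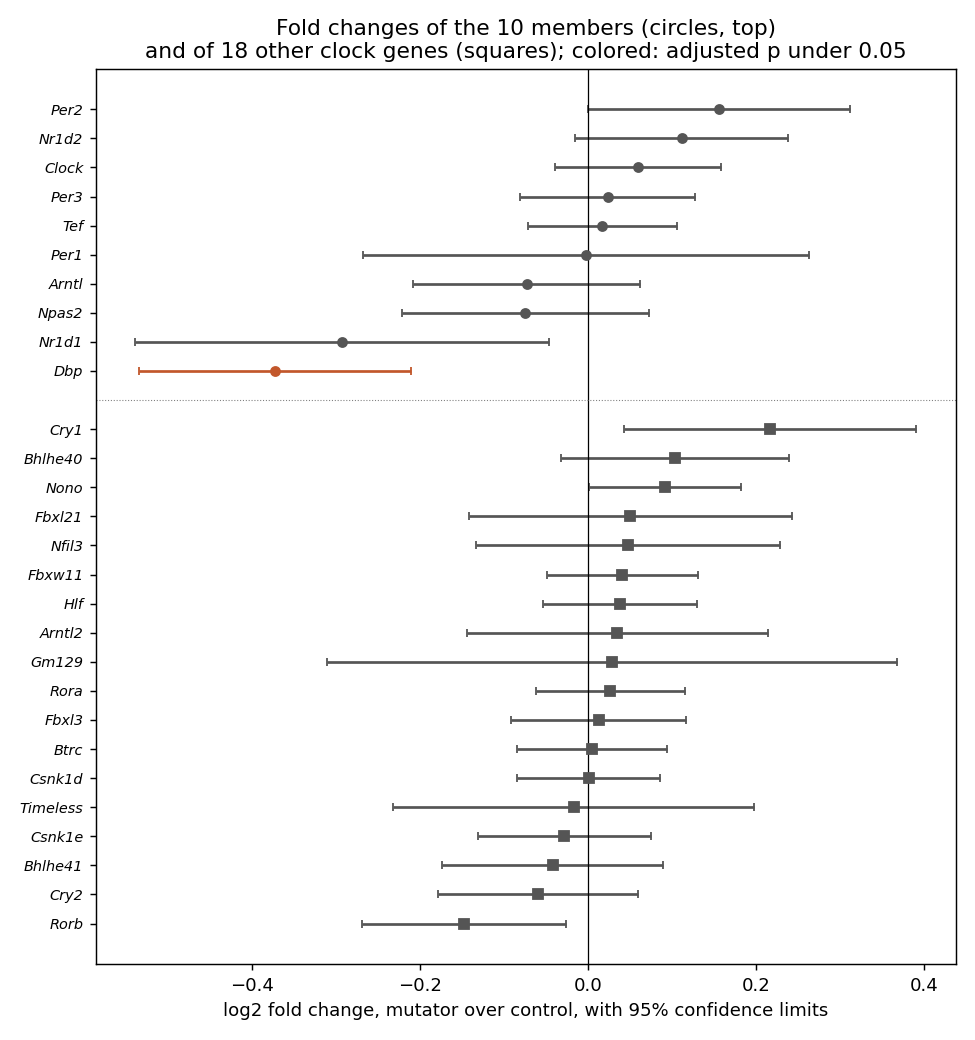
Log2 fold change of mutators over controls (horizontal axis) with 95% confidence limits from edgeR for the 10 clock genes (circles, upper panel part) and 18 other genes of the clock (squares, lower panel part). Dbp, drawn in color, is the 1 gene shown with an adjusted p under 0.05.

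Of 18 other genes of the clock reported here, all tested, 13 were higher and 5 lower, with a median log2 fold change of 0.028. None of the 18 was called by edgeR or by DESeq2. In edgeR 3 of them (Cry1, Rorb and Nono) had an unadjusted p under 0.05, against 15.8% of all genes tested. Cry1, whose protein joins the Per proteins in repressing Clock and Arntl, had the largest value. Its level was 20.5 CPM in mouse 205, 18.1 in mouse 237, 19.4 in mouse 239 and 20.7 in mouse 246. The mutators ran from 20.2 (mouse 248) through a median of 22.0 to 29.6 (mouse 207), so that the groups overlapped in 1 mutator. The log2 fold change of Cry1 was 0.22 (SE 0.083, edgeR adjusted p = 0.203), and without mouse 207 it was 0.14 (adjusted p = 0.194). Without mouse 237 it was 0.18 (edgeR adjusted p = 0.547). Rorb, which encodes a nuclear receptor that competes with Rev-erb for its sites, had the lowest value at -0.15 (SE 0.058, adjusted p = 0.216). That of Rorb was -0.13 without mouse 237 (edgeR adjusted p = 0.543).

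The output genes of the clock did not follow Dbp as a list. Of 13 genes reported as rhythmic in many tissues, 7 were higher and 6 lower, with a median log2 fold change of 0.017. None was called by edgeR, and 3 had an unadjusted p under 0.05, against 15.8% of all genes tested. DESeq2 called 1, Lonrf3 (log2 fold change 0.24, SE 0.078, DESeq2 adjusted p = 0.0493). Rbm3, which encodes a cold-inducible RNA-binding protein, had the largest value at 0.31 (SE 0.13, adjusted p = 0.285), and Coq10b, which encodes a coenzyme Q-binding protein, the smallest at -0.09 (SE 0.093, adjusted p = 0.682).

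Per1 and other clock genes also respond to neuronal activity and to glucocorticoids, so 2 lists of such genes were set beside them. All 10 genes of the activity list (Fos, Arc, Egr1 and others) were lower in the mutators, with a median log2 fold change of -0.33. None was called, and 2 had an unadjusted p under 0.05, against 1.24% and 15.8% of all genes tested. The summed level of the 10 was 1064 CPM in mouse 205, 609 in mouse 237, 634 in mouse 239 and 785 in mouse 246. In the mutators it ran from 401 (mouse 249) to 698 (mouse 207). Mouse 205 thus held the highest sum of activity genes and the highest control level of Per1, Per2, Per3, Nr1d2 and Tef. Its lead in Tef was slight, at 422 CPM against 421 in mouse 246. It was not the highest control for Arntl, Clock, Nr1d1 or Dbp, and it was the lowest for Npas2 (34.0 CPM). Mouse 205 also had the deepest library. All 11 glucocorticoid target genes were higher, with a median of 0.38. Against 1.24% of all genes tested, 1 of the 11 was called. This was Sult1a1, a sulfotransferase, at 7.05 ± 0.340 CPM (SD, n = 4) in controls and 12.4 ± 2.49 (SD, n = 7) in mutators (log2 fold change 0.80, SE 0.13, edgeR adjusted p = 0.00483). The summed level of the list was 456 to 512 CPM in controls and 550 to 902 in mutators, highest in mice 249, 236 and 207. The part that either moved in the levels of the clock genes was not tested.

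Among the marker lists of cell types, with 2 to 4 genes tested in each, 1 gene was called, against 1.24% of all genes tested. Adora2a, the adenosine receptor of striatal neurons, was at 40.7 to 55.2 CPM in controls and at 30.3 to 38.7 in mutators (log2 fold change -0.35, SE 0.079, edgeR adjusted p = 0.0376), again highest in mouse 237. Without mouse 237 its log2 fold change was -0.23 with an adjusted p of 0.190, and the call was lost without any 1 of 7 mice in all. The summed level of the 4 striatal markers was 359 to 473 CPM in controls and 300.2 to 405 in mutators, that of the 4 neuronal markers 5004 to 5408 and 4864 to 5258, and that of the 4 hypothalamic markers 29.1 to 40.6 and 39.5 to 75.1. All 4 microglial markers were lower, 3 of them at an unadjusted p under 0.05 in edgeR, against 15.8% of all genes tested. The sum of the 4 was 160 to 204 CPM in controls and 151 to 173 in mutators. The sum of the 4 endothelial markers was 119 to 144 CPM in controls and 126 to 176 in mutators, that of the 4 astrocyte markers 925 to 1016 and 889 to 1091, and that of the 4 oligodendrocyte markers 4297 to 4963 and 4310 to 6079. Of single markers, Flt1 of endothelium had a log2 fold change of 0.36 (adjusted p = 0.0615) and Slc17a7 of excitatory neurons one of -0.21 (adjusted p = 0.0995). The hypothalamus holds the central pacemaker. Of its markers, Avp was at 7.53 CPM in controls and 20.3 in mutators (edgeR adjusted p = 0.0807). Oxt was at 3.76 and 12.4 CPM (edgeR adjusted p = 0.268), with a lowest count of 9 in any mouse. Vip, the largest part of the summed level in controls, was at 22.4 CPM in both groups (log2 fold change 0.011). Prok2 was near 0, at 0.243 and 0.326 CPM. All 4 had a log2 fold change above 0. In edgeR 2 of them (Avp and Oxt) had an unadjusted p under 0.05, against 15.8% of all genes tested. The part of a difference in dissected regions or in cell types in the result for Dbp was not tested.

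The second question was whether clock genes varied more between mutators than between controls. For 9 of the 10 the SD of log2 CPM was larger among the controls, and Npas2 was the exception, with 0.12 in controls and 0.14 in mutators. In all genes tested, 54.3% had the larger SD in the mutators. The median SD of the clock genes was 0.13 in controls and 0.12 in mutators (0.12 and 0.13 over all genes). The difference was tested for each gene by a permutation test over all 330 splits of the mice (2-sided, smallest possible p 0.00303). Its statistic was the difference between the groups in mean absolute deviation from the group median. The deviation of each mouse was taken once from its own group and kept through the splits, so the p-values are approximate. Those of the 10 genes ran from 0.627 (Arntl) to 0.985 (Tef). None of the 17983 genes passed after adjustment (516 had an unadjusted p under 0.05). Even a gene at the smallest possible p of this permutation test had an adjusted p of 0.524. The lack of calls with these numbers of mice therefore does not show that the spread was equal. The count of 1 gene wider in the mutators rested on single mice. It was 4 without any 1 of the controls 205, 237 or 246, it was 2 without control 239, and it was 0 without mutator 217, which had the lowest Npas2.

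**Figure D3:**
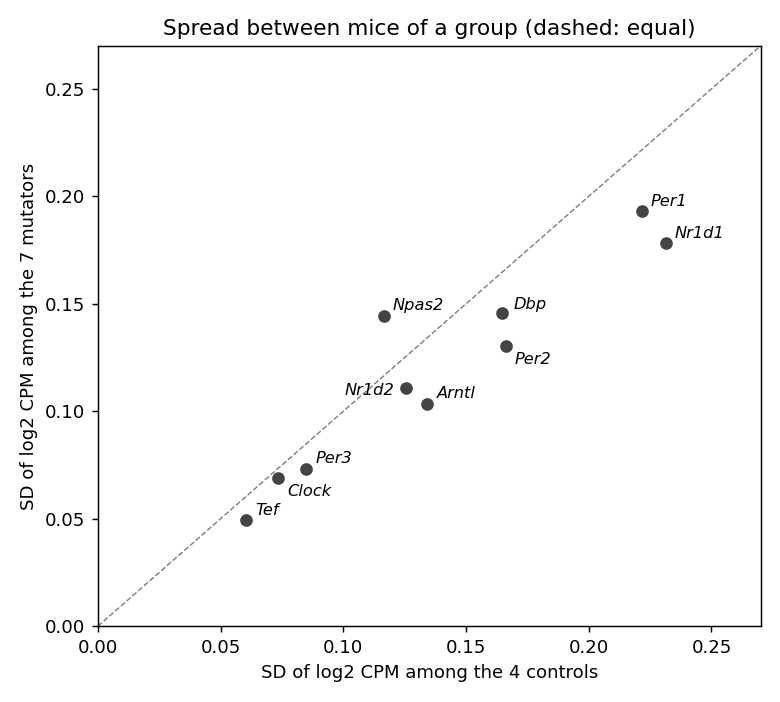
SD of log2 CPM (prior count 2) among the 4 controls (horizontal axis) and among the 7 mutators (vertical axis) for each clock gene, with a dashed line where the 2 are equal. Npas2 is the only point above the line, and Per1 and Nr1d1 lie farthest from the origin.

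Beside the trend at their abundance, the clock genes ranged from variable to steady. By the SD of log2 CPM pooled within the groups, which takes no account of abundance, they stood lower among all genes tested. Per1 was then at or above 68.0% of them, Nr1d1 67.2%, Dbp 58.0%, Per2 55.5%, Npas2 53.0%, Nr1d2 44.4%, Arntl 43.7%, Per3 18.8%, Clock 13.9% and Tef 4.62%. The dispersion that edgeR gave Per1 was 4.12 times the trend at its abundance, at or above that ratio in 98.6% of all genes tested, and that of Nr1d1 was 3.57 times the trend (98.3%). Dbp followed at 1.49 (91.5%), Per2 at 1.40 (89.7%), Nr1d2 at 1.24 (85.1%) and Npas2 at 1.18 (82.2%). Arntl (0.955, 64.5%), Per3 (0.798, 40.6%), Clock (0.786, 38.6%) and Tef (0.694, 20.4%) lay at or below the trend. The highest level of a gene over its lowest among the 11 mice was 1.73-fold for Nr1d1, 1.66-fold for Dbp and 1.53-fold for Per1, and 1.13-fold for Tef.

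Mice with more Dbp had more Nr1d1. Over the 11 mice, log2 CPM of the pair gave Pearson's r = 0.876 (permutation p = 0.00052 with 100000 resamples, 0.00884 after adjustment over the 17 pairs formed by Dbp or Arntl with the other genes) and Spearman's rho = 0.882 (permutation p = 0.00068). Without mice 237 and 236, the 2 farthest from the median of Dbp, r was 0.746 (permutation p = 0.0235). Within the 7 mutators alone r was 0.843 (exact permutation p = 0.0204, adjusted 0.116), and with the mean of each group subtracted it was 0.809 (permutation p = 0.00827, adjusted 0.0802). With each mutator left out of the 7 in turn, r ran from 0.722 to 0.895, and the exact permutation p exceeded 0.05 without mouse 207 (0.119), 236 (0.0542) or 248 (0.0625). The 4 controls alone are too few for a correlation.

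**Figure D4:**
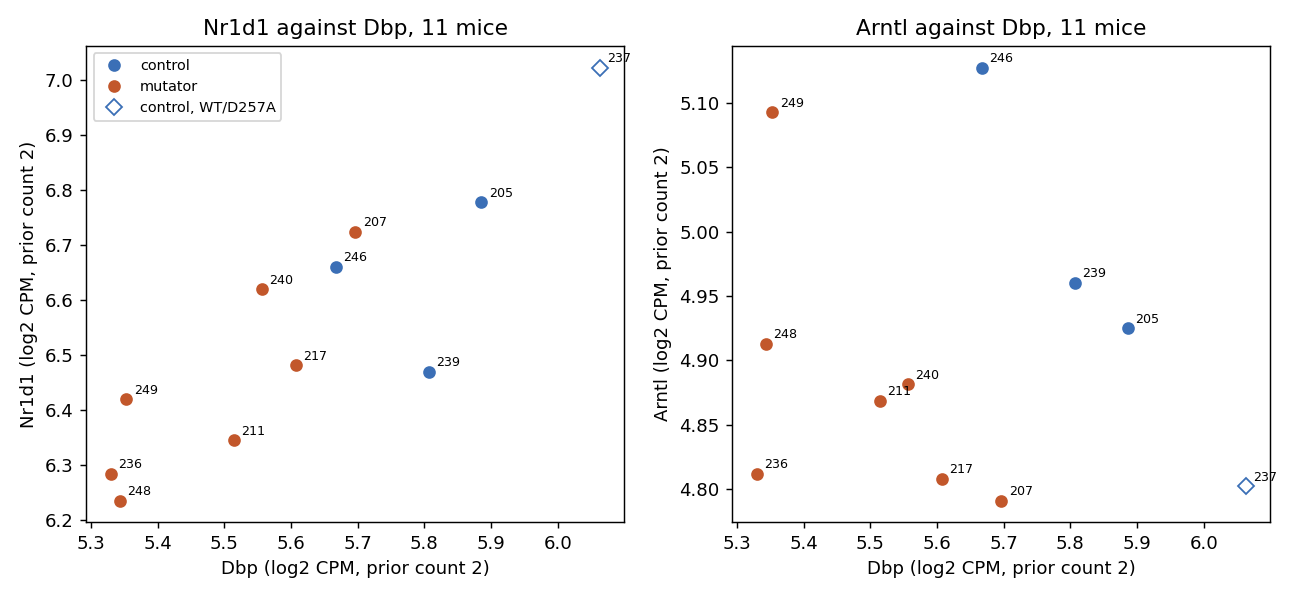
Log2 CPM (prior count 2) of Nr1d1 (left) and Arntl (right) against that of Dbp for each of the 11 mice, labelled by mouse number, with controls in blue (open diamond for WT/D257A) and mutators in orange. Nr1d1 rises with Dbp across both groups (r = 0.876), while Arntl gave r = -0.17 over all mice and -0.73 with the mean of each group subtracted.

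Dbp and Arntl, which peak at opposite phases, gave r = -0.17 over the 11 mice (permutation p = 0.611) and rho = -0.11 (permutation p = 0.755). Without mice 237 and 236 r was -0.14 (permutation p = 0.713), and the sign turned without mouse 237 (0.022) or without mouse 249 (0.036). In the 7 mutators r was -0.55 (exact permutation p = 0.184), and after subtracting the group means it was -0.73 (permutation p = 0.0158, adjusted 0.0895). Dbp and Clock gave r = -0.67 (permutation p = 0.0245, adjusted 0.209), r = -0.62 after subtracting the group means (permutation p = 0.0583) and r = -0.50 in the mutators (exact permutation p = 0.237). Without the WT/D257A mouse 237 the value for Dbp and Clock was -0.45 (permutation p = 0.186), and without mouse 249 it was -0.61 (permutation p = 0.0615). Arntl and Clock gave r = 0.526 over all mice (permutation p = 0.0983), 0.808 in the mutators (exact permutation p = 0.0145, adjusted 0.116) and 0.762 with group means subtracted (permutation p = 0.00943, adjusted 0.0802). With each mutator left out of the 7 it ran from 0.788 to 0.946, and the exact permutation p reached 0.05 without mouse 217 and 0.0722 without mouse 236. Arntl and Per2 gave r = 0.105 over all mice (permutation p = 0.755) and 0.907 in the mutators (exact permutation p = 0.00258, adjusted 0.0439). Mutator 249 had the highest level of both genes among the mutators. Without it r was 0.829 in the other 6 mutators (exact permutation p = 0.0361) and -0.30 over the other 10 mice (permutation p = 0.431). Of the 17 pairs, 2 had a permutation p under 0.05 over all mice and 1 remained after adjustment. In the mutators 3 did and 1 remained, and with the group means subtracted 3 did and none remained.

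The genes most like Dbp across the 11 mice were ranked by r of log2 CPM after subtracting the group means, among 14698 other genes with a mean of at least 1 CPM, as a description with no test. Nrarp, a feedback inhibitor of Notch signaling, came first (r = 0.939), and the 10 highest also held Zfp467 (0.929), Zbtb49 (0.928), Sord (0.913), Ctnnbip1 (0.909), Zfp641 (0.907), Tmem199 (0.906), Ap3s2 (0.896) and Sh3pxd2b (0.892). The most opposed were Vgll3 (-0.96), Copa (-0.95), Pak7 (-0.94), Dgka (-0.94) and Tram1l1 (-0.92). Of these 14 genes, none was called between the groups. Nr1d1 stood at rank 52 from the top. Gm129 (Ciart), a repressor of the clock, stood at rank 185 and Usp2, an output gene that encodes a ubiquitin protease, at rank 248, both looked up after the ranking was made. Arntl stood at rank 289 from the bottom and Clock at rank 859 from the bottom. The rest of the 10 clock genes lay between. Counted from the top, Per1 was at rank 1060, Per3 at 5441, Nr1d2 at 5636, Tef at 8341, Npas2 at 9446 and Per2 at 10038.

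The genes most like Arntl were Kif3b (0.944), a kinesin motor, Rap1gds1 (0.933), Schip1 (0.926), Asap1 (0.918), Ywhah (0.916), Mmd (0.915), Ncald (0.915), Smg6 (0.911), Osbpl1a (0.906) and 3110035E14Rik (0.905). The most opposed were Inhbb (-0.94), Gm13630 (-0.93), Prtn3 (-0.92), Cdh23 (-0.92) and Tbc1d7 (-0.91). Clock stood at rank 190 from the top for Arntl. None of these 15 genes was called either.

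Counts per exon bin were deposited for the 7 mutators and the 3 WT/WT controls, which allowed a test of exon use within each gene without the WT/D257A mouse. Of 206930 bins tested, 0.0237% were called and 1.9% had an unadjusted p under 0.05. Of 201 bins in the 10 clock genes, none was called by edgeR (diffSpliceDGE) or by limma, and 2 (0.995%) had an unadjusted p under 0.05 in edgeR. These were bin 12 of Nr1d2 (2.69 ± 0.554 CPM in WT/WT and 2.05 ± 0.402 in mutators, SD, adjusted p = 0.840) and bin 6 of Tef (3.67 ± 0.373 and 4.58 ± 0.460, SD, adjusted p = 1).

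All 7 bins of Dbp that could be tested had a lower mean level in the mutators than in these 3 WT/WT mice, by -0.24 to -0.42 on the log2 scale. Bin 1, at the start of the gene, was at 11.0 ± 0.892 CPM in WT/WT (SD, n = 3) and 8.87 ± 1.04 in mutators (SD, n = 7). Bin 7 was at 4.25 ± 0.196 and 3.18 ± 0.366 CPM. The other 4 bins, 8 to 11, had no count in any of the 10 mice. The bins of a gene come from the same libraries and are not independent of the gene counts above. For Nr1d1, 13 of 14 bins tested were lower, from -0.37 to 0.028. For Per2, 21 of 24 were higher, and for Tef 18 of 20, though Tef as a gene had a log2 fold change of 0.026 against these WT/WT controls. Bins were higher in 19 of 26 for Per3, 9 of 12 for Nr1d2, 16 of 25 for Clock and 17 of 31 for Per1. They were higher in 9 of 21 for Npas2 and in 5 of 21 for Arntl. No share over all bins was worked out.

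**Figure D5:**
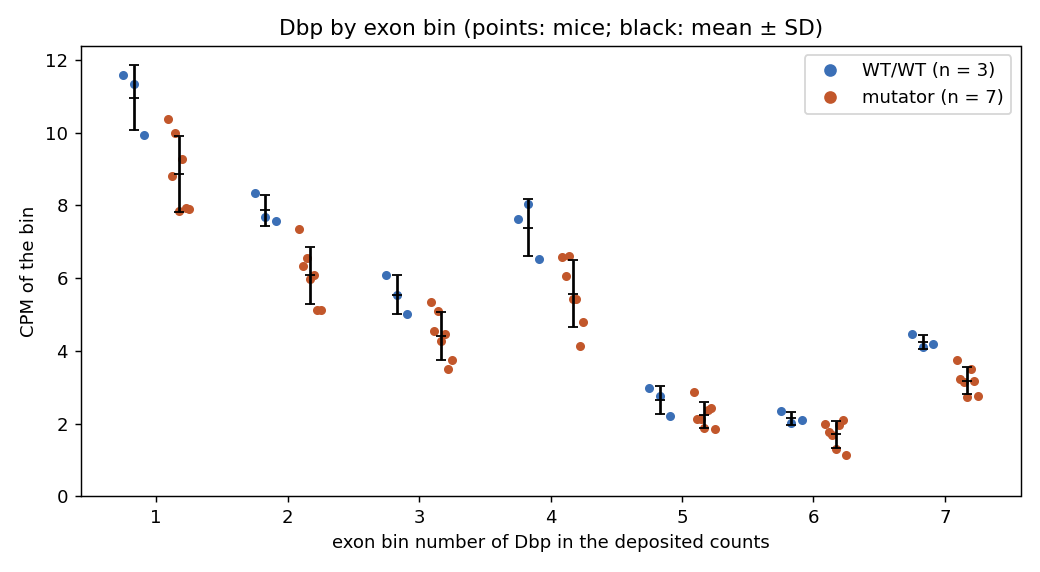
Level in CPM (vertical axis from 0) of the 7 exon bins of Dbp that were tested, by bin number, for 3 WT/WT mice (blue) and 7 mutators (orange), with black bars for mean ± SD. The mutator mean lies below the WT/WT mean in each of the 7 bins, and the points of the groups overlap in some of them.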

How the data were processed

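Gene counts were deposited by the authors as raw counts of reads per gene, not normalized. Per the submitters' processing notes and the study's methods, reads (CASAVA 1.7.1) were aligned to mm9 with TopHat2 2.0.6 and Bowtie2 2.0.2.0 and counted with HTSeq 0.5.3p9 on Ensembl genes. Exon bin counts were deposited for 10 mice, and reads in no bin (20.6% to 23.4%) were left out. The authors' own comparison tables of fold changes and p-values were not used. The deposited read totals and percent aligned served only to compare depths.

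All 11 count columns were used. The test of genes was the quasi-likelihood F-test of edgeR (4.0.16, under R 4.3.3), with a robust fit, TMM scaling, the filterByExpr filter and no covariate, and with Benjamini-Hochberg adjustment over all genes. The study used DESeq. CPM used TMM factors, and log2 CPM a prior count of 2. Alternatives were to use DESeq2 1.42.0, to scale by RLE or upper quartile factors, to drop the filter or ask for a mean count of 10, to keep WT/WT as the sole controls, to remove genes of the mitochondrial chromosome, to add the log2 library total or 1 surrogate variable (sva 3.50.0) as covariate, and to omit each mouse. For log2 CPM, a prior count of 0.5 was tried. Omitting each mutator from the correlations within the mutators was added after the data were seen. Exon bins were tested with diffSpliceDGE, with diffSplice of limma 3.58.1 as the alternative. Gene positions and overlaps are from GENCODE vM1 (mm9), a later release than the authors' Ensembl annotation. The tests of genes, of spread and of exon bins were tried on simulated data, as was the permutation test of correlation over 11 mice. The exact test within the mutators and the test with group means subtracted were not.

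The clock genes and the gene lists were chosen with earlier results of these data known. Genes outside the 10 were named when they passed the adjusted threshold, were the largest or smallest of the 2 clock lists, or were among the 10 most like and 5 most opposed to Dbp or Arntl. Other genes were named after their values were seen, as neighbours that overlap a clock gene, as examples or markers within a list, or as the members of a small count. Some genes that this rule or the lists would include are not reported here. Replicate numbers follow accession order and pair no mice.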

Additional observations from a re-analysis of the deposited data

Results flagged for a closer look

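Each of the 10 clock genes was checked in both groups for a mouse far from the rest, by the gap to the nearest other mouse as a share of the whole range of the group (Dixon's 95% critical value). Of 20 groups checked, 3 exceeded it, where chance gives about 1. Control 239 had the lowest Tef, at 387 CPM against 419 to 422 in the other 3 controls, a share of 0.909 (critical value 0.829). Mutator 249 had the highest Arntl, at 34.1 CPM against 27.7 to 30.1 in the other 6, a share of 0.621 (critical value 0.568). Mutator 207 had the highest Per1, at 135 CPM against 88.3 to 109, a share of 0.571, just above the same critical value.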

How the results depend on the processing

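Dbp was lower in the mutators under every alternative run, with an adjusted p from 0.00126 (DESeq2) to 0.142, under 0.05 in 17 of 20. With WT/WT controls only the log2 fold change was -0.30 and no clock gene (0) was called; with each mouse left out, it ran from -0.43 to -0.30, and the count of clock genes called from 0 to 1. None of the 18 other clock genes reported was called under any alternative. DESeq2 called 1 clock output gene. The count of clock genes with the larger SD in mutators was 4 with WT/WT controls only and 0 to 4 with each mouse left out. Over all genes, 223 were called, against 615 by DESeq2, 346 without the filter, 50 with WT/WT controls only and 50 to 412 with each mouse left out. Fold changes near 0 turned sign: Per1 was 0.0030 with upper quartile factors, 0.0015 with WT/WT controls only and -0.074 to 0.11 with each mouse left out, where Per3 ran from -0.014 to 0.047, Tef from -0.012 to 0.032 and Coq10b from -0.14 to 0.033. The correlation of Dbp and Arntl was -0.73 with group means subtracted and -0.33 to 0.036 with each mouse left out. No exon bin of a clock gene was called under any alternative (2 to 7 at an unadjusted p under 0.05). The lowest count of a clock gene in any mouse was 961.

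Other correlations that turned sign had a permutation p of at least 0.152 there. With group means subtracted, Dbp gave r = -0.18 with Npas2, 0.13 with Per3 and 0.11 with Nr1d2, and Arntl gave 0.13 with Nr1d2. In the mutators only, Dbp gave -0.32 with Npas2 and 0.356 with Nr1d2, and Arntl gave 0.55 with Per3 and 0.046 with Nr1d2. Without the 2 mice farthest from the median, Dbp gave -0.069 with Npas2, and Arntl gave -0.034 with Npas2, 0.391 with Per3, 0.265 with Nr1d2 and -0.28 with Tef. With each mouse left out, the pairs of Dbp ran from -0.14 to 0.27 for Npas2, -0.17 to 0.13 for Per3 and -0.58 to 0.020 for Nr1d2. Those of Arntl ran from -0.30 to 0.58 for Per2, -0.33 to 0.49 for Per3, -0.29 to 0.11 for Nr1d1 and -0.24 to 0.11 for Nr1d2. The cause of these changes was not tested.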
